A study of Mus musculus with 29 samples.

Results

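IGF1, its receptor and the IGF-binding proteins were followed through ovary development in mice with and without the cell-cycle inhibitor p27 (gene Cdkn1b). The set holds 8 genes of the 51912 in the deposited table: the ligand gene Igf1, the receptor gene Igf1r, and the binding-protein genes Igfbp2, Igfbp3, Igfbp4, Igfbp5, Igfbp6 and Igfbp7. They were listed by name, and Igfbp6 was also selected on its counts in these libraries, which were lower in Cdkn1b-null ovaries at 2 ages (E18.5 and PND8). Genotype differences of Igfbp6, and its changes with age, which rest on the same libraries, are therefore given as values with no test. The samples are 29 bulk RNA-seq libraries from whole ovaries that were dissociated with papain before RNA was extracted from the cells. Wild-type ovaries (WT, Cdkn1b +/+) and null ovaries (Cdkn1b -/-, p27null) were taken at 4 ages: adulthood at 12 weeks (12wk), the 8th day after birth (PND8), and days 13.5 and 18.5 of embryonic life (E13.5 and E18.5). Each wild-type group has 4 libraries. The null group has 4 libraries at E18.5 and 3 at each of the other ages. The labels do not give the strain, whether animals were littermates, or whether ovaries were pooled, so p-values measure the spread between these libraries, which may in part be technical. The labels name no tissue-restricted driver for the null allele.

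IGF1 is a secreted growth factor that binds the receptor tyrosine kinase IGF1R on the cell surface, and the receptor signals through the PI3K and AKT kinases. Binding proteins hold IGFs in the extracellular fluid; they can keep the ligand from its receptor or carry and store it, and proteases such as PAPP-A release it by cutting them. In the mouse ovary, IGF1 is known as a granulosa cell product that strengthens the response of growing follicles to follicle-stimulating hormone, and binding proteins are made by stroma, theca and granulosa cells.

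The targeted gene was lower in the null libraries at each age. In order of age, Cdkn1b differed by -2.38, -3.06, -1.06 and -1.85 (log2 fold change, null over wild type), with adjusted p of 0.0114, 1.12e-05, 0.0216 and 0.211. Library totals ran from 14.1 M (M, 1000000) to 24.86 M counts before birth and from 24.07 M to 48.21 M after it. Red blood cell content was uneven. In E13.5 wild-type replicate 3, the library furthest apart, the 7 red blood cell markers summed to 204997 CPM (counts per 1000000 counts of the scaled library), against 6384 to 10098 in the other E13.5 wild-type libraries. At E18.5 they summed to 1581 to 32599 CPM in wild-type and 1598 to 24030 CPM in null libraries. At PND8 null replicate 1 had 1853 CPM, and the other null libraries 247 and 162 CPM. Granulosa markers summed to between 375 and 902 CPM at E13.5 and to between 2593 and 5806 at 12wk. The 3 oviduct markers summed to less than 4 CPM in every group.

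The genes lie on 6 chromosomes, and 2 of them are neighbours. Igf1 (ENSMUSG00000020053) spans chr10:87858265-87937042 on the plus strand of GRCm38, and Igf1r (ENSMUSG00000005533) spans chr7:67952827-68233668 on the plus strand. Igfbp2 (ENSMUSG00000039323, chr1:72824503-72852474, plus strand) and Igfbp5 (ENSMUSG00000026185, chr1:72857932-72874884, minus strand) sit tail to tail with 5.458 kb between them. Igfbp3 (ENSMUSG00000020427, chr11:7206086-7213923, minus strand) lies 3.54 kb from Igfbp1, and Igfbp4 (ENSMUSG00000017493, chr11:99041244-99054392, plus strand) is on the same chromosome. Igfbp6 (ENSMUSG00000023046, chr15:102144362-102149511, plus strand) is the shortest, with 1112 bases of exon, and Igfbp7 (ENSMUSG00000036256, chr5:77349240-77408041, minus strand) has 1209. Igfbp7 overlaps Polr2b, a gene on the opposite strand with a mean count of 4394, and its estimated counts were not whole numbers in any of the 29 libraries. Whether the counting used strand is not given in the sources used here, so Igfbp7 levels are less certain than those of the other members. Igf1 overlaps the antisense gene Igf1os, whose mean count was 2.17.

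The sequences just before the starts of 4 members are shown as a description, and their part in the levels was not tested. Igfbp2 and Igfbp5 are the neighbours that led the fetal and neonatal ovary in turn. Igfbp4 and Igfbp6 had the highest correlation among members once group means were removed. Each line holds the 250 bases before a RefSeq start on GRCm38.p6, read 5′ to 3′ on the gene's own strand. Capitals mark matches on either strand to the core letters of 3 motifs. TATAAA is the core of the TATA box. The GC box is searched as GGGCGG. The remaining motif, named for its letters, is the CCAAT box. The windows are chr1:72824230-72824479, chr1:72874866-72875115, chr11:99040994-99041243 and chr15:102143936-102144185, in the order printed.
Igfbp2: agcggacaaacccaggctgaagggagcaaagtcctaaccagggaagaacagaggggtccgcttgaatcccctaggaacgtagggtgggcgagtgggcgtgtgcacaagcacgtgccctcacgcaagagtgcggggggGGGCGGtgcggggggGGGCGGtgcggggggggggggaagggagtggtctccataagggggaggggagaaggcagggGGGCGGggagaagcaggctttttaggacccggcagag
Igfbp5: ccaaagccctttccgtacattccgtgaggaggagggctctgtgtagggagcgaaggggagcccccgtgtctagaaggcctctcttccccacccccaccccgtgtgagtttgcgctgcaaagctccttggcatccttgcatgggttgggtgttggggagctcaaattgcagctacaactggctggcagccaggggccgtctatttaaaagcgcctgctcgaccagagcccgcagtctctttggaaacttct
Igfbp4: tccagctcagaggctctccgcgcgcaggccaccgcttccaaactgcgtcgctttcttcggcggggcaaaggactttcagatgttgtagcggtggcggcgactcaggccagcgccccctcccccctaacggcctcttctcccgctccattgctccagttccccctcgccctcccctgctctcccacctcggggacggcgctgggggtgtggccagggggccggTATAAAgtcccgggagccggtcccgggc
Igfbp6: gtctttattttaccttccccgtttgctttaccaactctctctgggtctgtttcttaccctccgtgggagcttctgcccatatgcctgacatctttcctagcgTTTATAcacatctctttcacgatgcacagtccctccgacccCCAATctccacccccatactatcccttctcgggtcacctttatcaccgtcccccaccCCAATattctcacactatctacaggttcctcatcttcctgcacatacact
The Igfbp2 window printed here holds 3 GC boxes, at 113, 98 and 37 bases before the start. Igfbp2 has another start, whose window (chr1:72825137-72825386, not printed) holds 0 matches. Igfbp4 has a TATA box core 28 bases before its start. In Igfbp6 the TATA letters read on the opposite strand, 148 bases before the start, and CCAAT boxes lie at 107 and 50 bases. The Igfbp5 window has no match to these letters. Of 32851 RefSeq promoters of the same length, 12.4% hold TATAAA, 32.7% hold GGGCGG and 33.8% hold CCAAT, so these matches are common. GTAAACA, the forkhead box letters that FOXO factors can bind, is in 3.17% of promoters and in 0 of the 9 windows of the 8 members (Igfbp2 has a pair of starts). G and C make up 67.2% of the printed Igfbp2 window, 56.4% of its other window and 49.6% of the Igfbp6 window. The median over all promoters is 52.4%.

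The binding proteins changed places with age, as read from CPM per kb of exon, a level scaled for gene length. At E13.5 Igfbp2 led in wild-type ovaries with 162 ± 29.2 CPM per kb (SD, n = 4), above Igfbp5 at 93.2 ± 8.07, and their ranges did not overlap. Igfbp5 led at E18.5 with 164 ± 46.7 and at PND8 with 329.8 ± 63.1 CPM per kb (n = 4 each). At 12wk Igfbp7 led with 338 ± 34.4 CPM per kb (n = 4), above Igfbp5 at 146 ± 50.6. The receptor gene Igf1r was the lowest of the 8 at E13.5 and E18.5, at 6.89 ± 0.74 and 6.93 ± 1.40 CPM per kb. Igfbp3 was the lowest at PND8, at 4.09 ± 1.38 CPM per kb. In the middle of the order many neighbours overlapped: at E18.5 the wild-type ranges of Igfbp2, Igfbp7, Igfbp4, Igfbp6, Igfbp3 and Igf1 each overlapped the next. Null ovaries had the same leading gene at each of the 4 ages, although at E18.5 Igfbp5 (101 ± 14.7 CPM per kb, n = 4) overlapped Igfbp2 (75.2 ± 9.32) there.

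**Figure D1:**
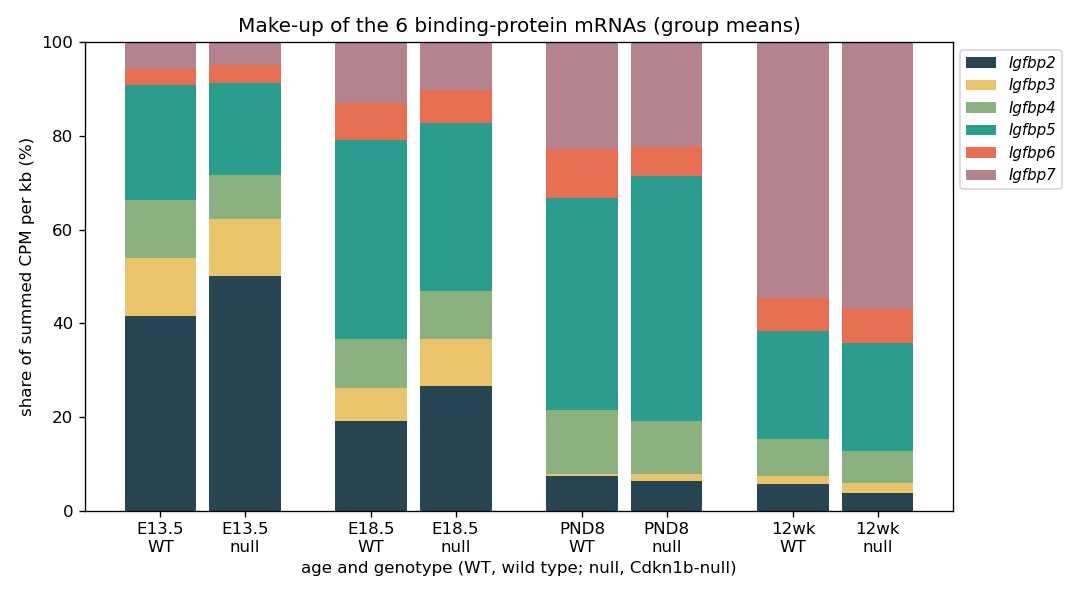
Share of each binding-protein mRNA in the summed CPM per kb of the 6 (vertical axis, %), as group means (3 or 4 libraries) by age and genotype. Igfbp2 fills 41.6% of the wild-type bar at E13.5 and 5.73% at 12wk, and Igfbp7 goes from 5.62% to 54.6%.

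The sum of the 6 binding proteins was 388 ± 46.3 CPM per kb in wild-type ovaries at E13.5 and 389 ± 92.8 at E18.5, then 726 ± 91.7 at PND8 and 624 ± 97.6 at 12wk (SD, n = 4 each). In order of age, Igfbp2 made up 41.6 ± 3.41%, 19.1 ± 6.33%, 7.31 ± 1.81% and 5.73 ± 2.00% of it. Igfbp5 took 24.5 ± 4.8%, 42.7 ± 9.24%, 45.2 ± 4.13% and 22.9 ± 5.53% at the same ages. Igfbp7 took 5.62 ± 3.23%, 13.0 ± 4.97%, 22.7 ± 1.38% and 54.6 ± 4.66%. In null ovaries the sum was 440.5 ± 83.1, 282 ± 26.7, 574 ± 25.1 and 678 ± 136 CPM per kb. The plot of shares by age shows the same replacement of Igfbp2 by Igfbp5 and then by Igfbp7 in both genotypes.

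**Figure D2:**
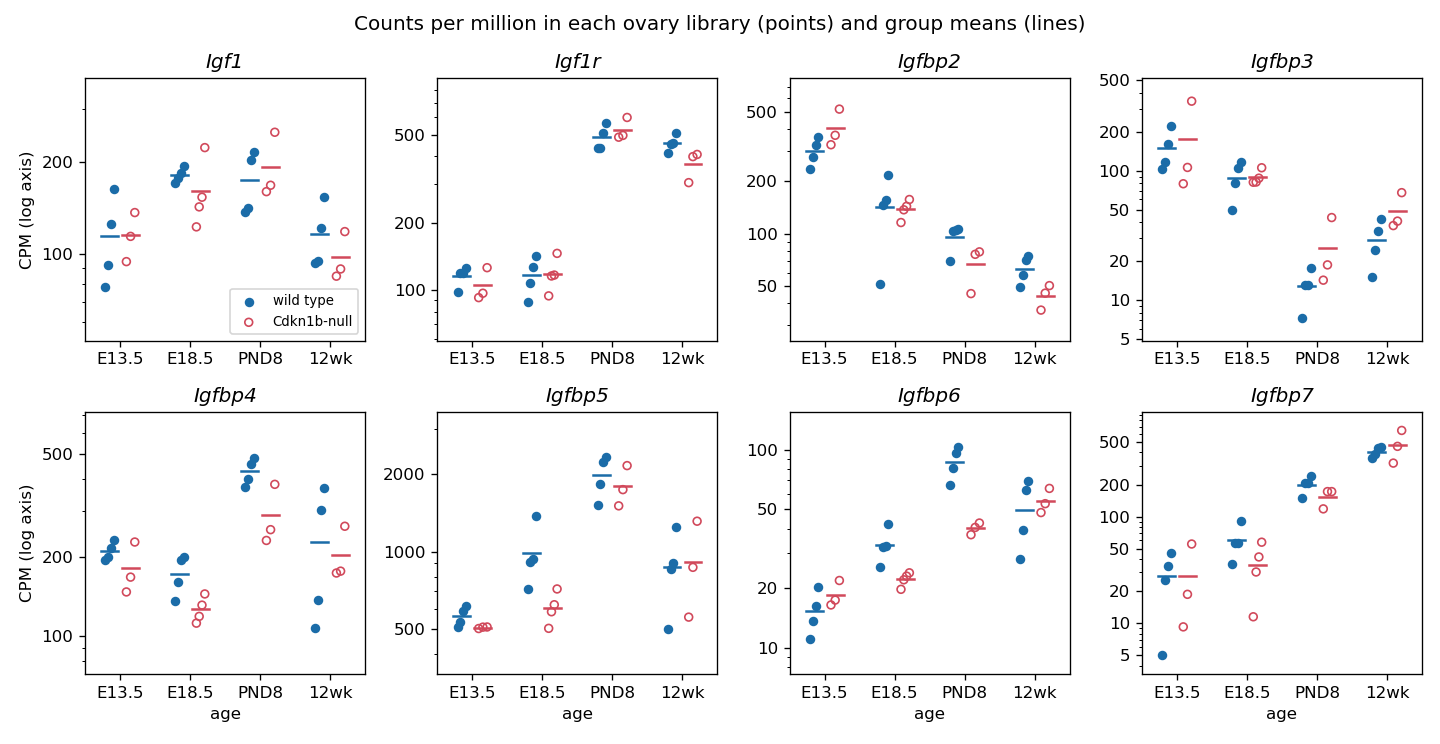
CPM (log axis) of each gene in each library against age, with wild-type libraries as filled points, Cdkn1b-null libraries as open points and group means as lines. Igf1r is at 88.6 to 146 CPM in the E18.5 libraries and at 435 to 599.7 at PND8; Igfbp6 at PND8 is at 65.9 to 103 CPM in wild-type and at 37.2 to 42.6 in null libraries.

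Igf1, the ligand gene, rose once in wild-type ovaries, between E13.5 and E18.5. Its E13.5 libraries had 92.6, 126, 78.3 and 163 CPM and its E18.5 libraries 171, 178, 184.8 and 194 CPM. The groups did not overlap. The log2 fold change was 0.65 ± 0.20 (SE), with an adjusted p of 0.0281. Leaving out E18.5 wild-type replicate 3 or 4, or E13.5 wild-type replicate 1, took the adjusted p to 0.0616, 0.066 and 0.088. At PND8 Igf1 stood at 217, 142, 204 and 137 CPM and at 12wk at 95.4, 93.5, 154 and 122 CPM. The log2 fold changes were -0.14 ± 0.16 across birth and -0.52 ± 0.21 from PND8 to 12wk, with adjusted p of 0.429 and 0.0896. In null ovaries Igf1 fell in the last step, from 251, 168 and 161 CPM to 89.7, 119 and 84.9, a log2 fold change of -0.90 ± 0.19 (adjusted p 0.0152). That call was lost without 12wk null replicate 4 (-0.83, adjusted p 0.0515).

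Igf1r, the receptor gene, rose about 4-fold across birth. The wild-type E18.5 libraries had 88.6, 127, 107 and 143 CPM, and the PND8 libraries 566, 435, 511 and 438 CPM. Every PND8 library lay above every E18.5 library. The log2 fold change was 1.98 ± 0.17 (adjusted p 2.50e-06), a fold of 3.95. In null ovaries the values were 94.1, 146, 116 and 117 CPM and then 489, 599.7 and 498 CPM, with a log2 fold change of 2.10 ± 0.15 (adjusted p 7.57e-07). Between E13.5 and E18.5, and between PND8 and 12wk, the wild-type estimates were both near 0, at -0.004 ± 0.157 and -0.007 ± 0.11 on the log2 scale. In null ovaries Igf1r fell from PND8 to 12wk, to 408.5, 399 and 305 CPM, by 0.43 on the log2 scale with an adjusted p of 0.0486. Leaving out any 1 of the 6 libraries (PND8 or 12wk null replicate 1, 3 or 4) ended that call, with adjusted p between 0.0598 and 0.168.

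Igfbp2, a binding protein abundant in fetal tissues, fell before birth. The E13.5 wild-type libraries had 276, 359, 237 and 326 CPM and the E18.5 libraries 51.8, 147, 157 and 218 CPM. The groups did not overlap, and E18.5 replicate 1 was far the lowest. The log2 fold change was -1.07 ± 0.35 (adjusted p 0.0373). Leaving out E18.5 wild-type replicate 2 or 3, or E13.5 replicate 1, 2 or 4, gave changes of -0.98 to -1.12 with adjusted p between 0.0589 and 0.0852, and with no filter on low counts the adjusted p was 0.123. The 7 surface epithelium and mesothelium markers summed to 239 CPM in E18.5 replicate 1 and to between 647 and 1057 CPM in the other E18.5 wild-type libraries; the part of these cells in the Igfbp2 levels was not tested. In bulk tissue, fewer cells of a type and less RNA per cell cannot be told apart. In null ovaries the fall was from 368, 520 and 325 CPM to 158, 138, 144 and 116 CPM, a log2 fold change of -1.52 ± 0.16 (adjusted p 0.000355). Igfbp2 fell again across birth in null ovaries (-1.11 ± 0.19, adjusted p 0.000601). The wild-type estimate across birth was -0.66 ± 0.35 with an adjusted p of 0.11, and without E18.5 replicate 1 it was -0.94 with an adjusted p of 0.00123. From PND8 to 12wk the wild-type level fell by 0.53 on the log2 scale (adjusted p 0.0404), a call lost without 12wk wild-type replicate 1, 3 or 4 or without PND8 wild-type replicate 2, 3 or 4 (adjusted p 0.0503 to 0.101).

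Igfbp3, the main carrier of IGFs in the circulation, had the deepest fall of the 8 across birth. The wild-type E18.5 libraries had 49.5, 79.8, 105 and 116 CPM, and the PND8 libraries 13.1, 7.26, 13.0 and 17.8 CPM. No libraries overlapped. The log2 fold change was -2.86 ± 0.32 (adjusted p 1.77e-05). Null ovaries went from 81.7, 105, 87.5 and 81.5 CPM to 43.4, 18.7 and 14.2 CPM, a log2 fold change of -1.87 ± 0.38 (adjusted p 0.00303). By 12wk wild-type libraries had 34.2, 42.0, 24.5 and 15.2 CPM, a rise of 1.25 ± 0.35 on the log2 scale (adjusted p 0.0254). That rise missed the threshold without 12wk wild-type replicate 1 or 2 or without PND8 wild-type replicate 1, 2 or 3, with changes of 1.02 to 1.26 and adjusted p between 0.0544 and 0.0624. In the null E13.5 group Igfbp3 was 345 CPM in replicate 1 and 79.3 and 106 CPM in the others. Replicate 1 also had the highest summed mesonephros and rete markers of the age (337 CPM). The order did not hold in other E13.5 libraries: wild-type replicate 2 had 291 CPM of these markers and 116 CPM of Igfbp3, and wild-type replicate 4 had 229 and 222 CPM. The part of these cells was not tested.

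Igfbp4, which binds IGFs and is cut by PAPP-A in growing follicles, and Igfbp5, an abundant binding protein of connective tissue, both rose across birth. Igfbp4 went from 161, 199.8, 136 and 195 CPM at E18.5 to 399.5, 482, 457 and 372 CPM at PND8 in wild-type ovaries (log2 fold change 1.22 ± 0.15, adjusted p 3.06e-05). In null ovaries it rose by 1.13 ± 0.16 (adjusted p 0.00016). All PND8 libraries lay above all E18.5 libraries in both genotypes. Igfbp5 went from 613, 509, 588 and 530 CPM at E13.5 to 936, 715, 912 and 1379 CPM at E18.5 in wild-type ovaries (log2 fold change 0.80 ± 0.19, adjusted p 0.00855). Its PND8 level was 2235, 1835, 1515 and 2339 CPM, a further 0.93 ± 0.22 (adjusted p 0.003). At 12wk it was lower again, at 1244, 500.5, 899 and 853 CPM (-1.11 ± 0.27, adjusted p 0.0141). Null ovaries went from 509, 508 and 502 CPM at E13.5 to 583, 503, 716 and 621 CPM at E18.5, a log2 fold change of 0.28 ± 0.12 with an adjusted p of 0.103, and then rose by 1.51 ± 0.15 across birth (adjusted p 7.49e-06). Igfbp4 fell in null ovaries between E13.5 and E18.5 (-0.50 ± 0.16, adjusted p 0.0426), a call lost when libraries were paired by replicate number (adjusted p 0.0549) and without E18.5 null replicate 2, 3 or 4 or E13.5 null replicate 1 (adjusted p 0.0812 to 0.113). In the wild-type 12wk group Igfbp4 was spread widely, at 137, 107, 370 and 303 CPM. Replicate 2 had the lowest Igfbp4 and Igfbp5 of that group. Its luteal and steroid cell markers summed to 14249 CPM, against 3811 to 6868 CPM in the others. Replicate 1, with 5435 CPM of these markers, also had low Igfbp4 (137 CPM) but the highest Igfbp5 (1244 CPM). The part of these cells was not tested.

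Igfbp6, a binding protein with a preference for IGF2, and Igfbp7, a relative that binds IGFs weakly and is strong in vessel walls, had low counts at E13.5 and higher ones at later ages. Wild-type Igfbp6 was at 13.7, 16.2, 11.1 and 20.2 CPM at E13.5 and at 25.6, 32.8, 32.1 and 42.0 CPM at E18.5. It then stood at 80.3, 103, 65.9 and 96.0 CPM at PND8. The groups did not overlap at either step (log2 fold changes 1.10 ± 0.21 and 1.3 ± 0.19). At 12wk the wild-type libraries had 39.2, 28.1, 69.6 and 62.6 CPM, a difference of -0.72 ± 0.28. Igfbp7 was at 25.3, 45.2, 5.01 and 34.8 CPM in the E13.5 wild-type libraries, and the value of 5.01 is from replicate 3, the library with the high red blood cell markers. It went from 36.0, 91.4, 57.2 and 56.6 CPM at E18.5 to 205, 206, 151 and 239 CPM at PND8 and 445, 358, 439 and 389.8 CPM at 12wk. The Igfbp7 rises were 1.65 ± 0.26 (adjusted p 0.000204) and 1.10 ± 0.15 (adjusted p 0.000958) on the log2 scale. In a fit of all 29 libraries, the later rise was 1.03 with an adjusted p of 0.134. In null ovaries Igfbp7 rose by 2.06 ± 0.49 (adjusted p 0.00751) and 1.72 ± 0.30 (adjusted p 0.00857) at the same steps. Endothelial markers rose with it from PND8 to 12wk in wild-type ovaries (6 of 6 passed the test, summed level 208 to 430.2 CPM and then 430.3 to 594 CPM). Other marker sums had higher means at that step too: luteal and steroid cells went from 1534 to 7591 CPM and leukocytes from 42.8 to 148 CPM. Across birth, where Igfbp7 also rose, the endothelial sums overlapped (112 to 306 CPM at E18.5). The part of these cells in the Igfbp7 rise was not tested.

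Counted over the 7 members other than Igfbp6, 3 of 7 genes passed the test in the wild-type step from E13.5 to E18.5 (Igf1 and Igfbp5 higher, Igfbp2 lower), where 34% of all tested genes did. Without E13.5 replicate 3 those 3 calls remained and Igfbp3 passed as well (-0.91, adjusted p 0.0388), where 6510 of 17076 genes passed. Without E18.5 replicate 3 or E13.5 replicate 1 of the wild type, 1 of 7 passed, where 4704 of 17044 and 4446 of 16981 genes did. In the step across birth 5 of 7 passed (4 higher, and Igfbp3 lower), against 74.6% of all genes, so the share of members is near that of the table. From PND8 to 12wk 4 of 7 passed (Igfbp3 and Igfbp7 higher, Igfbp2 and Igfbp5 lower), against 30.5%. It was 2 of 7 without 12wk wild-type replicate 1 or PND8 wild-type replicate 2 or 3. In those fits, in that order, 4445 of 17616, 3965 of 17689 and 4301 of 17715 genes passed. In null ovaries the counts were 2 of 7 (Igfbp2 and Igfbp4 lower; 30.2% of all genes), 6 of 7 (77.4%) and 3 of 7 (29.1%). The first of these was 1 of 7 without E18.5 null replicate 3 or 4 or E13.5 null replicate 1, and the last was 1 of 7 without 12wk null replicate 4. In those fits, in that order, 3655 of 16323, 3585 of 16293, 4747 of 17027 and 4223 of 18153 genes passed. Groups did not overlap for 3, 5 and 3 of the 7 members in the 3 wild-type steps (34.5%, 70.6% and 34.3% of all genes) and for 2, 6 and 4 of 7 in the null steps (39.9%, 77.5% and 47.9%). The median log2 fold change of the 7 across birth was 0.93 in wild-type ovaries, beside 0.006 over all tested genes.

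**Figure D3:**
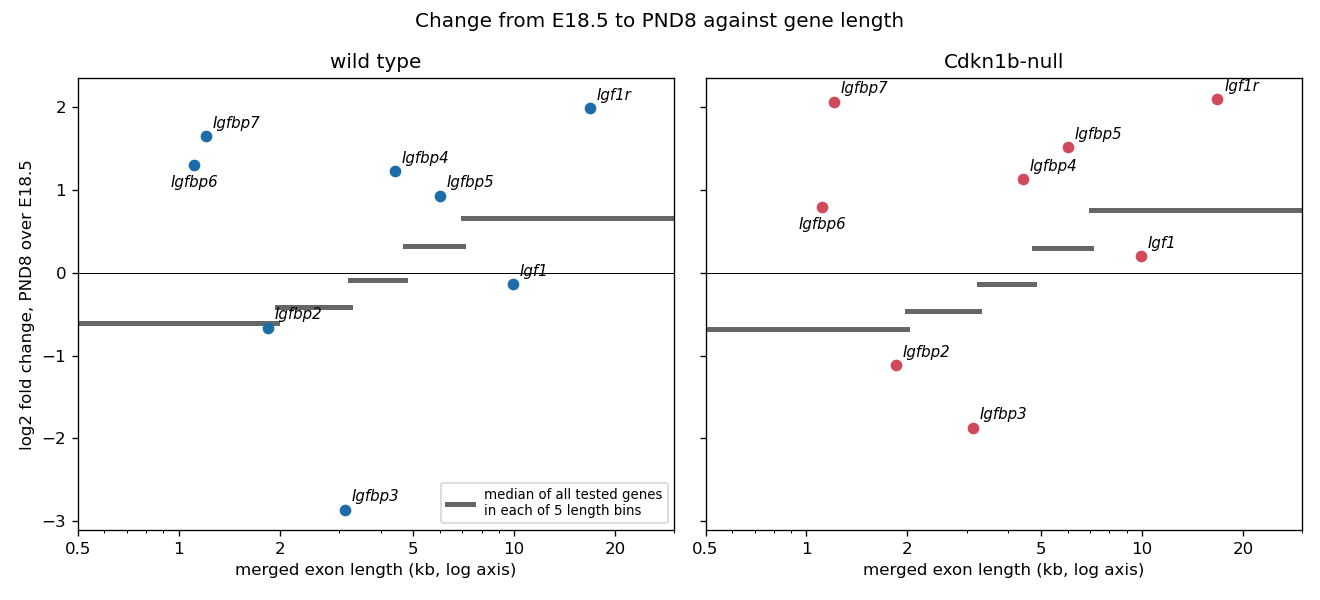
Log2 fold change from E18.5 to PND8 (vertical axis) against merged exon length (kb, log axis) in wild-type (left) and Cdkn1b-null ovaries (right); grey bars are medians of all tested genes in each of 5 length bins, drawn between 0.5 and 30 kb. The bars climb from -0.60 to 0.66 in wild type, while Igfbp6 and Igfbp7 lie above the bar of the shortest genes and Igf1 lies below that of the longest.

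The step across birth carried a trend over the whole table that touches these results. When all tested genes were split into 5 equal bins by exon length, the median log2 fold change in wild-type ovaries was -0.60, -0.41, -0.09, 0.32 and 0.66 from the shortest to the longest. Split by GC content, it ran from -0.63 in the lowest bin to 0.47 in the highest. Null ovaries showed the same, from -0.68 to 0.76 by length. Igf1r is in the bin of longest genes, and its wild-type change less the median of that bin was 1.32. Igfbp6 and Igfbp7 are in the bin of shortest genes, and theirs were 1.90 and 2.25. Igfbp2, also in the shortest, had -0.06. Igf1 had -0.80 by length and 0.49 by GC content, so its direction across birth depends on the reference. Igfbp3 was at -2.44, Igfbp4 at 1.31 and Igfbp5 at 0.61. Less the median of the GC bin, Igfbp6 and Igfbp7 were lower, at 0.82 and 1.17, and Igfbp2 was at -1.14. On that reference Igf1r was at 1.87, Igfbp3 at -3.10, Igfbp4 at 0.97 and Igfbp5 at 0.82. In null ovaries, where the fall of Igfbp2 across birth passed the test, Igfbp2 was at -0.44 by length and -1.54 by GC content. The fetal and postnatal libraries also differ in depth, and the part of library preparation in this trend was not tested.

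Between genotypes, Igfbp6 was the one member whose null and wild-type libraries did not overlap at both E18.5 and PND8, which is the pattern it was picked for. At E18.5 the wild-type values of 25.6, 32.8, 32.1 and 42.0 CPM lay above the null values of 23.9, 19.8, 23.0 and 22.1 CPM. The gap there was narrow, 25.6 against 23.9 CPM. At PND8 the wild-type values of 80.3, 103, 65.9 and 96.0 CPM lay well above the null values of 37.2, 40.5 and 42.6 CPM. The log2 fold changes were -0.59 ± 0.15 and -1.12 ± 0.15, the latter a fold of 0.46. At E13.5 the null libraries had 21.9, 17.4 and 16.5 CPM (0.25 ± 0.23) and at 12wk 53.4, 48.1 and 63.7 CPM (0.15 ± 0.31), and the groups overlapped. Groups lay apart with the null lower for 5.56% of all genes at E18.5 and 6.61% at PND8. As a share of the 6 binding proteins, Igfbp6 was 10.7 ± 1.35% in wild-type and 6.29 ± 0.39% in null ovaries at PND8, and 7.71 ± 0.27% and 7.09 ± 0.56% at E18.5. Across birth the wild-type values of Igfbp6 were higher by 1.3 on the log2 scale, and the null values by 0.79.

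**Figure D4:**
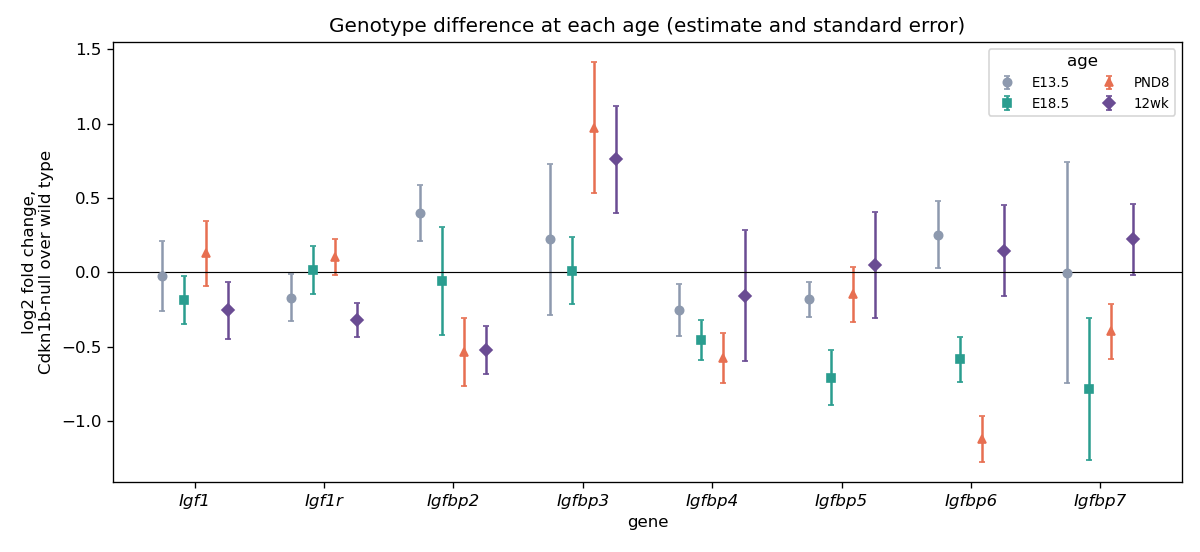
Log2 fold change of Cdkn1b-null over wild-type ovaries (points) with its standard error (bars) for each gene at the 4 ages. Igfbp6 is lowest at PND8 (-1.12), Igfbp4 and Igfbp5 are at -0.46 and -0.71 at E18.5, and Igfbp3 is above 0 at PND8 and 12wk with wide errors.

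None of the other 7 members passed the test between genotypes at any age by edgeR's quasi-likelihood test without the replicate block. With the block, Igfbp5 passed at E18.5 (-0.68, adjusted p 0.0211), where 937 of 16322 genes passed. Correlations of same-numbered libraries at that age were 0.101 to 0.198. Only 1 of the 4 wild-type libraries correlated best with the null library of its own number. In order of age, 0.00606%, 4.99%, 0.349% and 0.0115% of all genes passed without the block. At an unadjusted p under 0.05 the counts of members were 0, 2, 2 and 2, where 3.49%, 22.1%, 15% and 9.63% of all genes lay. DESeq2 called 0, 2, 1 and 0 of the 7, and 0.349%, 9.55%, 4.46% and 1.53% of all genes to which it gave an adjusted p. Groups did not overlap for Igfbp5 at E13.5 and for Igf1r at 12wk (both lower in null), and for none of the 7 at E18.5 and PND8, against 3.75%, 14.7%, 14.5% and 8.72% of all genes at the 4 ages. For Igfbp5 at E13.5 the ranges all but touched, at 508.9 CPM in null and 509.2 CPM in wild type (-0.18 ± 0.12, adjusted p 0.988).

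Igfbp5 came nearest to the threshold. At E18.5 its null libraries had 583, 503, 716 and 621 CPM against 936, 715, 912 and 1379 CPM in wild type, and the ranges touched at 716 and 715 CPM. The log2 fold change was -0.71 ± 0.19 with an adjusted p of 0.0526. DESeq2 gave -0.68 and an adjusted p of 0.00779. Without E18.5 wild-type replicate 2 the adjusted p was 0.0182 (-0.84). Over all alternatives it ran from 0.00779 to 0.134. At PND8 and 12wk the Igfbp5 estimates were -0.15 ± 0.18 and 0.05 ± 0.36.

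Igfbp4 was lower in null ovaries on average at both E18.5 and PND8, without passing the test. At E18.5 the null libraries had 145, 112, 119 and 131 CPM (-0.46 ± 0.13, adjusted p 0.0758). At PND8 they had 381, 255 and 232 CPM, and null replicate 1 lay within the wild-type range of 372 to 482 CPM. The PND8 estimate was -0.58 ± 0.17 with an adjusted p of 0.181. Without PND8 null replicate 1 it was -0.82 with an adjusted p of 0.0462, and without E18.5 wild-type replicate 3 the E18.5 estimate was -0.55 with 0.0476. DESeq2 gave adjusted p of 0.0452 at E18.5 and 0.0205 at PND8. Adjusted p ran from 0.0452 to 0.376 at E18.5 and from 0.0205 to 0.889 at PND8 over the alternatives.

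Beside these values, the summed stroma and theca markers had lower means in null ovaries. The 10 genes summed to 2635 to 4405 CPM in wild-type and 2172 to 3630 CPM in null ovaries at E18.5, and to 7261 to 10561 and 6046 to 9641 CPM at PND8. Of the 10, 2 passed the test as lower at E18.5 and 1 at PND8. Granulosa markers summed to 1136 to 1467 CPM in wild-type and 1432 to 1686 CPM in null ovaries at E18.5, with 2 of 8 tested genes higher, and to 3386 to 4169 and 4160 to 4438 CPM at PND8, with 1 of 9 higher. The granulosa markers did not move as 1: the means of Foxl2 were 47.2 CPM in wild-type and 38.2 CPM in null ovaries at E18.5 and 488 and 405 CPM at PND8, and those of Wnt4 were 57.8 and 41.0 and then 161 and 98.0 CPM. Inha had 101 and 224 CPM at E18.5 and 1315 and 1858 CPM at PND8. The 6 luteal and steroid cell markers did not overlap in their sums at either age, with 222 to 334 CPM in wild-type and 364 to 474 CPM in null ovaries at E18.5 and 1338 to 1632 and 1683 to 2598 CPM at PND8. Of these 6, 1 passed as higher at E18.5 and 0 at PND8. The stroma and theca sums overlapped at both ages. Other lists had lower null means too, with overlap. In wild-type and null ovaries, smooth muscle and pericyte means were 329 and 264 CPM at E18.5 and 693 and 569 CPM at PND8. Surface epithelium and mesothelium had 731 and 715 CPM, then 287 and 193 CPM. Germ cell means were lower at E18.5 (642 and 399.5 CPM) and higher at PND8 (213 and 304 CPM). Endothelial means were slightly higher (201.5 and 226 CPM, then 301 and 306 CPM). The part of these cell types in the Igfbp4, Igfbp5 and Igfbp6 values was not tested.

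The other members gave smaller or less certain values. Igfbp2 was 69.8, 105, 105 and 107 CPM in wild-type and 45.5, 79.0 and 76.5 CPM in null ovaries at PND8 (-0.54 ± 0.23, adjusted p 0.333). At 12wk it was 49.6, 75.0, 57.9 and 70.7 CPM and 45.8, 50.6 and 36.6 CPM (-0.52 ± 0.16, adjusted p 0.423). At E13.5 its estimate had the other sign, 0.40 ± 0.19 (adjusted p 0.988). Igf1r at 12wk was 461.5, 457, 512 and 415 CPM in wild-type and 408.5, 399 and 305 CPM in null ovaries, with no overlap (-0.32 ± 0.12, adjusted p 0.477). At E13.5 the Igfbp3 estimate was 0.22 ± 0.51, and -0.74 without null replicate 1. Igfbp3 was higher in null ovaries on average at PND8 (0.97 ± 0.44, adjusted p 0.36) and at 12wk (0.76 ± 0.36, adjusted p 0.553), with overlap at both ages. At PND8 null replicate 1 had 43.4 CPM and the others 18.7 and 14.2 CPM, against 7.26 to 17.8 CPM in wild type. With 1 library left out at a time, the PND8 estimate ran from 0.35 to 1.26. At 12wk the highest Igfbp3 (67.7 CPM) and Igfbp7 (643 CPM) were both in null replicate 4, which also had the most endothelial (1304 CPM) and smooth muscle (1969 CPM) markers of that age. Without that library the 12wk estimates were 0.41 for Igfbp3 and -0.10 for Igfbp7, in place of 0.76 and 0.22. Igfbp7 at E18.5 was 57.6, 41.9, 30.3 and 11.5 CPM in null ovaries (-0.78 ± 0.48, adjusted p 0.378). For Igf1 the 4 estimates lay between -0.26 and 0.13 with standard errors of 0.16 to 0.23.

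Whether the genotype difference changed with age was tested in 1 fit over the 29 libraries. None of the 7 members passed by edgeR or by DESeq2, and none had an unadjusted p under 0.05, where 0.806% of all genes passed by edgeR, 3.91% by DESeq2, and 12.7% had such a p. The lowest adjusted p among them was 0.459, for Igfbp2, whose estimates were 0.40, -0.06, -0.54 and -0.52 from E13.5 to 12wk. Igfbp5 had an adjusted p of 0.561. The steps of the null and wild-type ovaries given above are therefore not shown to differ for any of these 7 genes.

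The other genes of the pathway were described from a list of 56. The fetal ligand gene Igf2 fell at every wild-type step, from 659 ± 179 CPM at E13.5 and then to 359 ± 90.7, 40.7 ± 8.45 and 7.91 ± 2.89 CPM in order of age (adjusted p 0.0116, 6.01e-07 and 0.000935). At 12wk the null libraries had 21.1 ± 10.7 CPM of Igf2 (SD, n = 3), a log2 fold change of 1.43 ± 0.46 with an adjusted p of 0.435. Igfbp1, a liver binding protein, had 1.07 ± 0.32 CPM at E13.5 in wild-type ovaries. The receptor genes Insr and Igf2r rose across birth together with Igf1r, Insr from 17.2 ± 4.20 to 101 ± 12.7 CPM (2.47 ± 0.19, adjusted p 1.39e-06) and Igf2r from 90.3 ± 20.6 to 277 ± 50.1 CPM (1.53 ± 0.19, adjusted p 3.07e-05). Both are in the bin of longest genes, and less its median their changes were 1.81 and 0.87. Insr rose again to 156 ± 17.4 CPM at 12wk (0.70 ± 0.11, adjusted p 0.00233).

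Among the proteases and their inhibitors, Pappa, whose product cuts binding proteins, was at 2.97 ± 0.96 CPM in E18.5 wild-type ovaries and then at 5.43 ± 1.18 and 12.3 ± 10.2 CPM at the later ages, and its rise across birth passed the test (0.79 ± 0.30, adjusted p 0.0329). Pappa is in the bin of longest genes at that step, and its change less the median of that bin was 0.12. Stc2, which encodes an inhibitor of PAPP-A, rose between E13.5 and E18.5 from 7.40 ± 1.16 to 21.1 ± 4.11 CPM (1.5 ± 0.21, adjusted p 0.000467). The serine protease genes Htra1 and Htra3, whose products can cut binding proteins, rose at that step too, Htra1 from 35.3 to 128 CPM (adjusted p 0.000169) and Htra3 from 20.8 ± 7.72 to 160 ± 38.4 CPM (2.93 ± 0.29, adjusted p 8.4e-05). Htra3 was the 1 gene of 49 tested in the list that passed between genotypes at E18.5, where 4.99% of all genes did. It had 160 ± 38.4 CPM in wild-type and 96.0 ± 6.75 CPM in null ovaries (n = 4 each), a log2 fold change of -0.74 ± 0.15 with an adjusted p of 0.0194. At the other ages 0 of 52, 0 of 51 and 0 of 49 tested genes passed (0.00606%, 0.349% and 0.0115% of all genes), and 0 of 55 passed the test of a changing genotype difference (0.806%).

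Over the whole list, from ligands to kinases and FOXO factors, 43 of 49 tested genes passed across birth in wild-type ovaries (34 higher, 9 lower), where 74.6% of all genes did. In null ovaries it was 43 of 49 (33 higher, 10 lower), where 77.4% did. The median log2 fold change of the list was 1.28 in wild-type ovaries, beside 0.006 over all genes. With the median of each gene's length bin taken off it was 0.98. In null ovaries the list's median was 1.52, and 0.85 with the length bin taken off. Mtor, the kinase of the TOR complexes, went from 28.6 ± 1.63 to 109 ± 8.84 CPM (1.84 ± 0.10, adjusted p 2.06e-07) and the FOXO factor gene Foxo4 from 3.47 ± 0.63 to 41.3 ± 3.04 CPM (3.48 ± 0.16, adjusted p 7.44e-08). All 4 FOXO genes rose. Rheb, the small GTPase that activates mTOR, fell from 221 ± 26.7 to 78.2 ± 5.13 CPM (-1.58 ± 0.11, adjusted p 6.71e-07). From PND8 to 12wk 17 of 50 genes passed in wild-type ovaries (13 higher), where 30.5% of all genes did. The adaptor genes Grb14 and Grb10, whose products bind and restrain the insulin and IGF1 receptors, went in opposite directions at that step. Grb14 rose from 80.0 ± 14.1 to 302 ± 79.2 CPM (adjusted p 0.00025), and Grb10 fell from 326 ± 23.8 to 106 ± 15.3 CPM (adjusted p 7.92e-05). In the step from E13.5 to E18.5, 17 of 51 passed in wild-type (10 higher, 7 lower; 34% of all genes) and 18 of 50 in null ovaries (14 higher, 4 lower; 30.2%).

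Each member's course over the 29 libraries was also set beside that of 12833 genes with a mean of at least 2 CPM. These correlations are descriptions: all libraries share the 4 ages, which set most of the likeness. Removing each age's mean leaves genotype differences in. Igfbp6 was picked on such a difference, so its correlations partly restate that choice. Igfbp6 was most like Cygb (r = 0.94; 0.76 once each age's mean was removed), Npr1 and Foxs1. Igfbp5 was most like Frem1 (0.93; 0.71), Col12a1 and Tcf21, the last of which is also in the stroma list. Igfbp7 was nearest to Rerg (0.95; 0.68), Igfbp2 to Aprt (0.96; 0.77), Igfbp3 to Cd83 (0.91; 0.46) and Igfbp4 to Insyn1 (0.85; 0.73). Igf1 was nearest to Adamts16 (0.85; 0.62) and Igf1r to Rad54l2 (0.99; 0.76). Among the members themselves, with the mean of each age and genotype removed, Igfbp4 and Igfbp6 had the highest correlation (0.66), followed by Igfbp6 and Igfbp7 (0.46). The neighbours Igfbp2 and Igfbp5 had a correlation of 0.01 on that scale. Igfbp4 and Igfbp6 were both spread most widely in the 12wk wild-type group (107 to 370 and 28.1 to 69.6 CPM), which weighs heavily in their correlation. They did not vary together in every group: PND8 null replicate 1 had the highest Igfbp4 (381 CPM) and the lowest Igfbp6 (37.2 CPM) of its group.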

How the data were processed

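The deposited table holds RSEM expected counts per Ensembl gene for 29 libraries, per the file header. Trim Galore, STAR 2.5.2, RSEM 1.3.0 and FastQC 0.11.5 were used by the authors, per the submitters' processing notes. The genome build, annotation release and strandedness are not given in the sources used here. The file header names a folder that combines 2 projects, without saying which library belongs to which, so a batch could not be separated. Of 51912 gene IDs, 51633 matched a symbol.

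Expected counts were rounded and tested with edgeR 4.0.16 (TMM scaling, filterByExpr with a minimum count of 10 and total of 15, robust quasi-likelihood fit) in R 4.3.3. Each comparison was fitted on its own groups over the whole table, without a block, and p-values were adjusted by Benjamini-Hochberg over all tested genes, with a threshold of 0.05. A standard error is the absolute log2 fold change divided by the square root of F. For Igfbp6 it is given as a description only and not as a test, because the gene was selected on the same libraries. The genotype by age test used all 29 libraries. Levels are TMM-scaled CPM, divided between genes by merged exon length (GENCODE M21, GRCm38), which may not be the authors' annotation. Alternatives were RLE size factors, no filter, DESeq2 1.42.0, a fit of all 29 samples, a replicate block, the longest transcript, and leaving out each library. The scripts' tests were tested on simulated data.

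The members, the pathway list of 56 genes, the 12 marker lists (78 genes, all in the table) and the rules were chosen with earlier results of these data known. Igfbp6 had been planned for tests in the wild-type steps; these were dropped because its choice had used wild-type libraries of those steps. Named genes are the 8 members, Cdkn1b, up to 2 pathway genes higher and 2 lower by smallest p per comparison with a mean of at least 2 CPM, 6 pathway genes by role, and the 3 genes most like each member. Replicate numbers are in the labels of both genotypes. Same-numbered libraries deviated together in all 4 pairs at E18.5 (correlations 0.101 to 0.198). The same held in all 3 pairs of the null step from E13.5 to E18.5 (0.132 to 0.204). Such correlations count as pairing here, and elsewhere at least 1 pair was below 0.1. They are weak evidence at E18.5, where only 1 of 4 wild-type libraries correlated best with its own number, against 3 of 3 in that null step. No 2 libraries of a group agreed within counting noise (chi-square per degree of freedom of at least 14.1 over 39 pairs).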

Additional observations from a re-analysis of the deposited data

Results flagged for a closer look

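One result stood out from its group. Igfbp2 was at 69.8 CPM in PND8 wild-type replicate 1, while the other 3 libraries of that group lay between 105 and 107 CPM. The gap took up 0.946 of the group's whole range. Among 40 groups of 4 libraries tested in this way, 1 met the limit for a sample far from the others, and chance flags about 1 group in 20. The same library had the lowest summed surface epithelium and mesothelium markers of its group, 184 CPM against 285 to 361 CPM, and their part in the Igfbp2 value was not tested.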

How the results depend on the processing

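Of the alternatives to each test, DESeq2 called 2 members between genotypes at E18.5 and 1 at PND8, in place of 0 in each. In the null step from PND8 to 12wk it called 5, in place of 3. Of all genes to which it gave an adjusted p, DESeq2 called 1637 of 17149, 715 of 16047 and 5928 of 21627 there. Pairing libraries by replicate number (the replicate block) called 1 between genotypes at E18.5, in place of 0, where 937 of 16322 genes passed. In the null step from E13.5 to E18.5 it called 1, in place of 2, where 3877 of 16598 genes passed. A fit of all 29 samples also called 1 in that null step, where 5504 of 20359 genes passed. The block further ended the calls of Igfbp3 in the wild-type step from PND8 to 12wk (adjusted p 0.0983) and of Igf1r in the null step (0.0677), and added Igfbp3 in the wild-type step from E13.5 to E18.5 (0.0491) and Igfbp5 in the null step from PND8 to 12wk (0.0184). With no filter on low counts, 2 members passed in the wild-type step from PND8 to 12wk, in place of 4. Over all genes 4829 of 31594 passed in that fit. Leaving out 1 library at a time gave 0 to 0 members called between genotypes at E13.5 and 12wk and 0 to 1 at E18.5 and PND8. It gave 1 to 4, 5 to 6 and 2 to 5 in the wild-type steps, 1 to 2, 6 to 6 and 1 to 4 in the null steps, and 0 to 0 for the changing genotype difference. Over all genes, 4446 to 6510, 12480 to 13561 and 3965 to 5641 passed in the wild-type steps with 1 library left out. In the null steps it was 3355 to 4747, 12671 to 13177 and 2642 to 5129. Scaling by the longest transcript moved the summed binding-protein level to 476 (E13.5 wild type), 554 (E13.5 null), 326 (E18.5 null) and 602 CPM per kb (PND8 null), and the Igfbp5 share at E13.5 in null ovaries to 15.6%. RLE scaling moved the PND8 null sum to 548 CPM per kb. The cause of these shifts was not tested. Sign changes were confined to estimates that passed no test. Between genotypes at E13.5, Igfbp7 became 0.0054 with RLE scaling, 0.0127 with DESeq2 and 0.40 with the block, Igf1 became 0.0063 in the fit of all samples and 0.071 with the block, and Igfbp3 became -0.16 with the block. With the block, Igfbp2 became 0.083 at E18.5, and Igfbp5 and Igfbp6 became -0.20 and -0.029 at 12wk. In wild-type steps, Igf1r became 0.0029 without the filter and 0.0084 in the fit of all samples from E13.5 to E18.5, and 0.0025 without the filter from PND8 to 12wk. Igf1 across birth became 0.49 less the median of its GC bin in wild-type ovaries and -0.56 less the median of its length bin in null ovaries, a comparison chosen after seeing the data. Leaving out 1 library at a time changed the sign of these estimates, with their ranges. Between genotypes at E13.5 Igf1 ran from -0.15 to 0.19, Igfbp3 from -0.74 to 0.58 and Igfbp7 from -1.02 to 0.42. At E18.5 Igf1r ran from -0.10 to 0.12, Igfbp2 from -0.34 to 0.21 and Igfbp3 from -0.18 to 0.17, and at PND8 Igf1 from -0.10 to 0.25. At 12wk Igfbp4 ran from -0.41 to 0.15, Igfbp5 from -0.27 to 0.32, Igfbp6 from -0.065 to 0.33 and Igfbp7 from -0.10 to 0.46. In wild-type steps Igf1r ran from -0.11 to 0.11 (E13.5 to E18.5) and from -0.065 to 0.078 (PND8 to 12wk), and Igf1 from -0.22 to 0.0037 across birth. In null steps Igfbp7 ran from -0.052 to 1.35 (E13.5 to E18.5) and Igf1 from -0.026 to 0.37 across birth.

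Counts over all genes moved more. Between genotypes, 1 gene passed at E13.5 (71 by DESeq2, 59 in the fit of all samples), 814 at E18.5 (1637 by DESeq2; 246 to 1372 with 1 library left out) and 62 at PND8 (715 by DESeq2, 258 without the filter, 8 with the block, 0 in the fit of all samples; 0 to 147 with 1 library left out). At 12wk 2 passed (293 by DESeq2, 68 in the fit of all samples, 12 without the filter, 10 with the block, 3 with RLE; 0 to 3 with 1 library left out). For the changing genotype difference it was 164 (708 by DESeq2; 72 to 235 with 1 library left out). A count of 3 stands for 0.0622 to 0.213 CPM over the libraries, below the lowest level of any member (5.01 CPM).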
